A study of Mus musculus with 21 samples.

Results

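The genes described here are the enzymes of cholesterol synthesis and the genes that set a cell's sterol level, followed across sorted cells of the mouse stomach with and without tamoxifen. They were a list of 28 genes: 19 synthesis enzymes, 5 regulators, 2 genes of uptake and transport and 2 of efflux. Each gene was read from the probe set (a set of probes for 1 transcript) that the array's annotation gives to that gene and no other, taking the brightest where there were several. Of the 28, 26 had such a probe set, among 22180 genes of the table, and 17 of the 19 enzymes were among them. Idi1, the isomerase that supplies a precursor of farnesyl diphosphate, shares its probe set with another gene, and Acat2, a thiolase at the head of the route, was not matched, so neither is given values.

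Cells make cholesterol from acetyl-CoA by way of mevalonate, which is built up to squalene, closed into the sterol lanosterol and then trimmed and reduced to cholesterol. The route is set by SREBP transcription factors, which are escorted by SCAP from the endoplasmic reticulum when sterols are low, enter the nucleus and switch on the enzymes and Insig1. INSIG proteins hold SCAP back when sterols are plentiful. Oxysterols activate LXR receptors, which raise the exporters Abca1 and Abcg1 and Mylip, a ubiquitin ligase that marks the LDL receptor for degradation. Tamoxifen is used in mice to switch on CreER, harms parietal cells of the stomach at high doses, and is known to bind the sterol isomerase encoded by Ebp.

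The series profiled RNA of stomach corpus cells from mice with a fluorescent reporter of Lgr5, which flow cytometry separated by reporter signal into Lgr5GFP high, low and negative cells. Its title places Lgr5 expression in chief cells, which secrete pepsinogen, and names epithelial regeneration as a theme. The tamoxifen groups came from mice injected with 0.27 mg per g of body weight 24 h before the cells were isolated, and have 4 arrays for each population. The control groups came from mice that their titles call uninjected, and have 3 arrays for each population, which gives 21 arrays in 6 groups. All groups carry the Lgr5GFP reporter. Strain, age, sex and the reporter allele are not given in the sources used here, and no sample is from a mouse injected with vehicle, so effects of drug, injection and sorting run cannot be told apart. The design text calls the replicates technical and from individual sorting runs. The p-values therefore measure the spread between runs, and whether runs came from separate mice is not stated.

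Values are log2 signals, and differences are log2 differences, tamoxifen minus control unless stated. A level can be compared between groups for 1 gene, not between genes. The 3 control negative arrays carry the words for control low cells in 1 label and those for negative cells in the others. Lgr5, which drives the reporter and so only checks the labels, had a mean of 4.59 in tamoxifen negative and 4.41 in control negative cells, below the 6.70 of tamoxifen low and the 7.56 of control low cells, and 8.43 in tamoxifen high and 8.79 in control high cells. Arrays of a group correlated with r from 0.944 to 0.991 over all genes. Olfactory receptor genes, a guide to background, had a 95th percentile of 4.16, and all 546 values of the 26 genes lay above it, the lowest at 4.49. In sorted bulk samples, fewer cells of a type and less RNA per cell cannot be told apart.

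Those of the 26 genes that were called between tamoxifen and control in a single population were all lower with tamoxifen. Hmgcs1, the synthase that makes HMG-CoA, and Insig1 fell in both high and low cells, Tm7sf2, a sterol reductase, fell in high cells and Sqle, the squalene epoxidase, fell in low cells. In high cells 0 genes of the 26 rose and 3 fell, where 1.04% of all genes fell and 1.7% rose (limma, Benjamini-Hochberg adjusted p under 0.05 over all genes). In low cells 0 rose and 3 fell, against 2.98% of all genes that fell and 5.35% that rose. In negative cells 0 of 26 were called by limma, against 2.32% of all genes called in either direction, and 5 of the 26 had an unadjusted p under 0.05. That unadjusted share was 46.2% of the 26 in high, 34.6% in low and 19.2% in negative cells, against 16.9%, 21.3% and 12.4% of all genes. The median difference of the 26 genes was -0.38 in high, -0.17 in low and -0.23 in negative cells, beside medians of all genes that were 0.01 or smaller in size. With only the high groups in the fit, the calls of Hmgcs1, Tm7sf2 and Insig1 in high cells were lost (adjusted p = 0.207, 0.305 and 0.201). The number of genes with a lower mean after tamoxifen was 19, 18 and 19 of the 26 in high, low and negative cells. Among all 22180 genes it was 11054, 10872 and 11171.

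**Figure D1:**
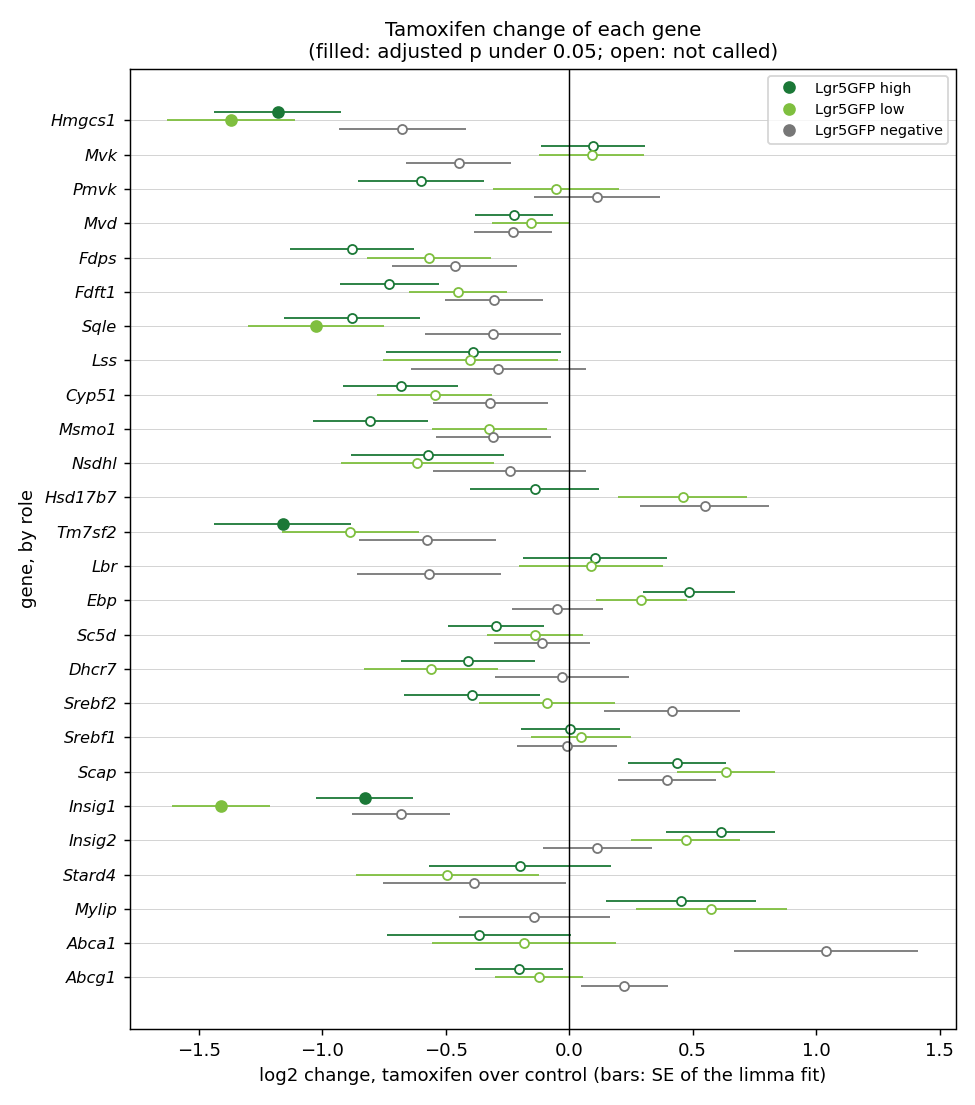
Log2 change with tamoxifen (tamoxifen minus control) of the 26 genes, ordered by role, in Lgr5GFP high, low and negative cells. Points are the limma estimates and bars their SE; filled points were called at an adjusted p under 0.05. Hmgcs1 and Insig1 are filled in high and low cells, Tm7sf2 in high and Sqle in low cells, and no point of negative cells is filled.

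Of the 28 listed genes, 23 have a promoter window in the RefSeq table of mouse assembly GRCm38.p6, which covers 250 bases before the gene start and 50 from it. Of the 4 genes called in a single population, Sqle has no window there, and those of the other three are shown because SREBP acts at such promoters together with NF-Y, which binds CCAAT. The first 280 bases of each window are printed on the gene's own strand, with matches to TCACNCCAC, a form of the SREBP site, and to CCAAT or its reverse complement ATTGG in capitals. Hmgcs1 lies at chr13:119690101-119690380 (plus strand), Tm7sf2 at chr19:6067821-6068100 (minus strand) and Insig1 at chr5:28071162-28071441 (plus strand).
Hmgcs1: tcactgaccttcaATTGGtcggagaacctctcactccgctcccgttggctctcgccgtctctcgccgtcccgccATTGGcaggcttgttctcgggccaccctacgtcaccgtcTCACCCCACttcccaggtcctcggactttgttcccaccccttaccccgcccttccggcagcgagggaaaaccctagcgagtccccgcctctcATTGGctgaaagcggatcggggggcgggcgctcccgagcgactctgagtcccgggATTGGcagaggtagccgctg
Tm7sf2: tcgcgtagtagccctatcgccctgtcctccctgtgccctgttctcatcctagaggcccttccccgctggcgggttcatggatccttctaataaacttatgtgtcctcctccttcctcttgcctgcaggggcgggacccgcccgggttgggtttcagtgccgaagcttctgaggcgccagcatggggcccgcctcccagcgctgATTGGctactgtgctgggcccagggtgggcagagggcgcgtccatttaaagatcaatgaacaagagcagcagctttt
Insig1: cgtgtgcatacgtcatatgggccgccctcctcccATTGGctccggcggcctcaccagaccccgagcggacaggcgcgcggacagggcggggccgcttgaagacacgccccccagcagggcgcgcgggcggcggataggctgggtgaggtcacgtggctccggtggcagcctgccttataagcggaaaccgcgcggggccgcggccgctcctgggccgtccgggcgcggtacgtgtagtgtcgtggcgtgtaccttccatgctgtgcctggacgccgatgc

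The Hmgcs1 window holds 4 CCAAT matches, all on the opposite strand, and 1 match to TCACNCCAC, and the windows of Tm7sf2 and Insig1 hold 1 CCAAT match each and none to TCACNCCAC. Among the 23 listed genes with a window, 20 held CCAAT on either strand, which is 87% of them, against 41.1% of the 27025 genes of the table. TCACNCCAC was found in 1 of the 23, Hmgcs1, which is 4.35%, against 1.44% of all genes, and the longer form of that site known from the LDL receptor gene in 0 of the 23, against 0.0999% of all genes. A match is a run of letters and not a measured binding site, and a window without one says nothing about the factor.

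In the mevalonate branch, Hmgcs1 differed most. Hmgcs1 read 8.14, 8.76, 8.76 and 8.56 in tamoxifen high cells, against 10.42, 9.43 and 9.35 in control high cells. All 4 tamoxifen arrays lay below all 3 control arrays, and control high 1 stood well above the other two. The difference was -1.18 ± 0.26 (SE), 2.26-fold lower (limma, adjusted p = 0.0169). In low cells Hmgcs1 read 8.29, 8.03, 7.83 and 7.79 with tamoxifen, against 9.77, 9.08 and 9.21 in control. The groups were again separate, and the difference was -1.37 ± 0.26, 2.58-fold lower (limma, adjusted p = 0.00194). In negative cells it read 9.32, 8.57, 8.97 and 8.35 with tamoxifen, against 9.50, 9.44 and 9.49 in control. The control arrays were close together and above all tamoxifen arrays, but the difference of -0.67 ± 0.26 was not called (limma, adjusted p = 0.242). The call in low cells held under each of its 16 alternative settings, and that in high cells was lost without control high 1 (adjusted p = 0.121) and without tamoxifen high 1 (adjusted p = 0.0534).

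The other mevalonate enzymes differed less. Fdps, which makes farnesyl diphosphate, read 7.76, 7.96, 8.63 and 8.63 in tamoxifen high cells and 9.33, 9.02 and 9.01 in control high cells, with no overlap. Its difference of -0.88 ± 0.25 missed the threshold (limma, adjusted p = 0.0665), and it was -0.57 in low and -0.46 in negative cells. Pmvk, phosphomevalonate kinase, differed by -0.60, -0.05 and 0.11 in high, low and negative cells. Mvk, mevalonate kinase, differed by 0.10, 0.09 and -0.45, and in negative cells its tamoxifen arrays (5.73 to 6.32) all lay below its control arrays (6.38 to 6.67), with a limma adjusted p of 0.395. Mvd, the decarboxylase that follows, lay between -0.23 and -0.16 in the 3 populations.

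The enzymes that make and close squalene were lower in mean in every population. Sqle, which oxidises squalene and is a control point of the route, read 7.15, 6.70, 6.98 and 7.25 in tamoxifen low cells, against 8.58, 7.33 and 8.22 in control low cells. The groups did not overlap, by a narrow margin at control low 2. Sqle fell by 1.03 ± 0.27 on the log2 scale, 2.04-fold (limma, adjusted p = 0.0223), and the call was lost without tamoxifen low 2, control low 1 or control low 3 (adjusted p = 0.0749, 0.167 and 0.0838). In high cells it read 7.82, 7.85, 8.29 and 7.94 with tamoxifen and 9.60, 8.35 and 8.62 in control, a difference of -0.88 ± 0.27 that was not called (limma, adjusted p = 0.0930). Fdft1, squalene synthase, read 9.07, 8.85, 9.35 and 9.39 in tamoxifen high cells and 10.22, 9.77 and 9.69 in control high cells. Those groups did not overlap, and the difference of -0.73 ± 0.20 lay just past the threshold (limma, adjusted p = 0.0547). Lss, which folds oxidised squalene into lanosterol, differed by -0.39, -0.40 and -0.29 in high, low and negative cells, with overlapping arrays in each.

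**Figure D2:**
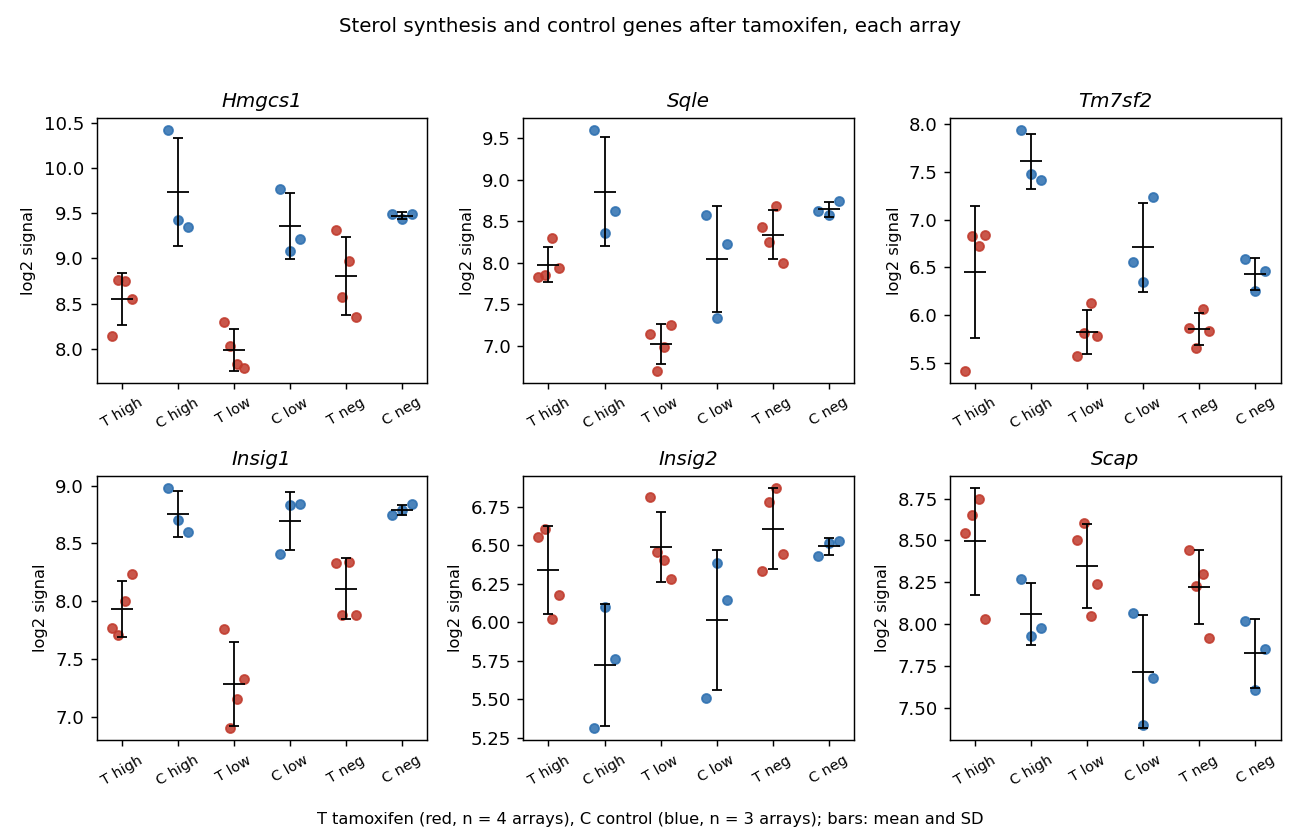
Log2 signal of Hmgcs1, Sqle, Tm7sf2, Insig1, Insig2 and Scap on each array, with the tamoxifen group (red, n = 4) left of its control group (blue, n = 3) for each population; bars are the mean and SD. Tamoxifen arrays of Hmgcs1, Tm7sf2 and Insig1 lie below all control arrays of their population, and control high 1 is the highest control high array for Hmgcs1, Sqle and Tm7sf2.

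Between lanosterol and cholesterol, 7 of 9 enzymes had a lower mean in tamoxifen high cells, and Tm7sf2 was the 1 called. Tm7sf2 reduces a ring double bond of the sterol, a step it shares with Lbr. It read 5.42, 6.83, 6.72 and 6.83 in tamoxifen high cells, against 7.93, 7.48 and 7.41 in control high cells. Tamoxifen high 1 was far below the other tamoxifen arrays, and the highest tamoxifen array was still below every control array. The difference was -1.16 ± 0.28, 2.23-fold lower (limma, adjusted p = 0.0271), and the call was lost without tamoxifen high 1 (-0.81, adjusted p = 0.0528), and likewise without control high 1 (adjusted p = 0.143) or control high 2 (adjusted p = 0.0717). Tm7sf2 read 5.58, 5.82, 6.12 and 5.78 in tamoxifen low and 6.56, 6.34 and 7.23 in control low cells (-0.89 ± 0.28, limma adjusted p = 0.0525). In negative cells it read 5.87, 5.66, 6.07 and 5.84 with tamoxifen and 6.59, 6.25 and 6.46 in control (-0.57 ± 0.28, limma adjusted p = 0.408). Its groups were separate in all 3 populations, like those of Hmgcs1 and Insig1. In high, low and negative cells taken singly, 4.6%, 9.06% and 7.38% of all genes had every tamoxifen array below every control array. The share of all genes that were separate in all 3 populations was not computed. Lbr, which is also a receptor for lamin B at the nuclear envelope, differed by 0.11, 0.09 and -0.57 with overlapping arrays.

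Ebp, the isomerase that tamoxifen is known to bind, and Dhcr7, the last reductase, were not called. Ebp read 7.19, 6.92, 7.55 and 7.02 in tamoxifen high cells, against 6.28, 6.92 and 6.86 in control high cells. The lowest tamoxifen array and the highest control array both round to 6.92, and Ebp was the 1 gene of the 26 whose tamoxifen high arrays all lay above control, against 5.78% of all genes. The difference was 0.49 ± 0.18 (95% interval 0.10 to 0.87, limma adjusted p = 0.171). It was 0.29 ± 0.18 in low cells and -0.05 ± 0.18 in negative cells, with overlapping arrays in both. Dhcr7 differed by -0.41 ± 0.27, -0.56 ± 0.27 and -0.03 ± 0.27 in high, low and negative cells, with overlap in each. Cyp51, lanosterol demethylase, and Msmo1, a methylsterol oxidase, differed by -0.68 and -0.80 in high cells without a call (limma, adjusted p = 0.122 and 0.0693). Nsdhl, which removes a carboxyl group, differed by -0.57, -0.61 and -0.24, Sc5d, a desaturase, by -0.30, -0.14 and -0.11, and Hsd17b7, a keto reductase, by -0.14, 0.46 and 0.55.

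Among the regulators, Insig1 was the 1 gene called in a single population, and it fell. Insig1 read 7.77, 7.71, 8.01 and 8.24 in tamoxifen high cells, against 8.98, 8.70 and 8.60 in control high cells. No array overlapped, and Insig1 fell by 0.83 ± 0.20, 1.78-fold (limma, adjusted p = 0.0261). In low cells it read 7.76, 6.90, 7.16 and 7.33 with tamoxifen, against 8.41, 8.84 and 8.84 in control. The groups lay apart, and Insig1 fell by 1.41 ± 0.20, 2.65-fold (limma, adjusted p = 0.000137). In negative cells it read 8.33, 7.88, 8.34 and 7.88 with tamoxifen and 8.75, 8.78 and 8.84 in control, a difference of -0.68 ± 0.20 that was not called (limma, adjusted p = 0.0801). The low-cell call held under each of its 16 alternatives. The high-cell call was lost without tamoxifen high 1 (adjusted p = 0.0725), tamoxifen high 2 (0.0771), control high 1 (0.139) or control high 2 (0.0747).

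Srebf2, the main SREBP of cholesterol synthesis, read 8.53, 8.35, 8.98 and 8.04 in tamoxifen high and 9.47, 8.54 and 8.60 in control high cells, and its difference was -0.39 ± 0.27 in high, -0.09 ± 0.27 in low and 0.42 ± 0.27 in negative cells. Srebf1, which acts more on fatty acid genes, lay between -0.01 and 0.05 in the 3 populations. The arrays of both genes overlapped between tamoxifen and control in every population. Insig2, the second INSIG gene, read 6.55, 6.61, 6.02 and 6.17 in tamoxifen high and 5.31, 6.10 and 5.76 in control high cells, a difference of 0.61 ± 0.22 (limma, adjusted p = 0.145), and differed by 0.47 in low and 0.11 in negative cells. Scap read 8.55, 8.65, 8.75 and 8.03 in tamoxifen high and 8.27, 7.93 and 7.98 in control high cells, and its difference was 0.44 in high, 0.63 in low and 0.40 in negative cells, none of them called. The array has a second, dimmer Scap probe set, on which the differences were 0.03, 0.01 and -0.18, so the probe sets of this gene disagree.

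Averaged over the 3 populations, which uses all 12 tamoxifen and 9 control arrays, 8 of the 26 genes fell and 2 rose, against 6.74% of all genes that fell and 9.9% that rose. The fit takes these arrays as independent, although arrays of different populations share numbers in their titles. Its p-values therefore make no allowance for spread that such arrays share. The 8 were Hmgcs1, Fdps, Fdft1, Sqle, Cyp51, Msmo1, Tm7sf2 and Insig1, of which 7 are enzymes. Hmgcs1 fell by 1.07 ± 0.15 (limma, adjusted p = 5.47e-05) and Insig1 by 0.97 ± 0.11 (limma, adjusted p = 8.73e-06). Tm7sf2 fell by 0.87, Sqle by 0.74, Fdps by 0.64, Cyp51 by 0.51, Fdft1 by 0.49 and Msmo1 by 0.48. Scap rose by 0.49 ± 0.12 (limma, adjusted p = 0.00583), a call that the mean of its probe sets did not keep (0.22, adjusted p = 0.0592). Insig2 rose by 0.40 ± 0.13 (limma, adjusted p = 0.0354), a call lost in 14 of its 30 alternatives, 11 of which leave out 1 array, with adjusted p of up to 0.0852 without control low 1. The calls of the 8 lower genes held without any 1 array. The number in the array titles was taken here as the sorting run, though the titles do not say what it stands for. Run, so taken, and treatment are nested, since each run holds 1 treatment.

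The listed genes of uptake and transport and of efflux were not called between tamoxifen and control in any population. Stard4, a cytosolic carrier of cholesterol, differed by -0.20, -0.49 and -0.38 in high, low and negative cells. Mylip read 6.37, 6.53, 6.0 and 6.33 in tamoxifen low cells and 5.58, 5.69 and 5.93 in control low cells, and the groups did not overlap, as was so for 12.1% of all genes in that direction. Its difference was 0.58 ± 0.30 (limma, adjusted p = 0.286), and 0.45 in high and -0.14 in negative cells. Abca1, which exports cholesterol to apolipoprotein A-I, read 6.47, 6.73, 6.34 and 5.06 in tamoxifen negative cells and 5.22, 5.02 and 5.09 in control negative cells. Of the 4 tamoxifen arrays 3 lay far above control and tamoxifen negative 4 lay among the control arrays, and the difference was 1.04 ± 0.37 (limma, adjusted p = 0.203). Abca1 differed by -0.37 in high and -0.18 in low cells, and Abcg1, which passes cholesterol to lipoproteins, by -0.20, -0.12 and 0.22 in high, low and negative cells.

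Whether the tamoxifen difference itself differed between populations was tested with interaction terms, and limma called 0 of the 26 genes in each of the 3 comparisons of populations, where 0.248% (high minus negative), 0.839% (low minus negative) and 0.0271% (high minus low) of all genes were called. Unadjusted p under 0.05 was reached by 2, 2 and 1 of the 26, which is 7.69%, 7.69% and 3.85%, against 8.09%, 9.23% and 6.76% of all genes. Abca1 had interaction values of -1.41 for high minus negative and -1.22 for low minus negative (limma, adjusted p = 0.399 and 0.461). Insig1 had -0.73 for low minus negative and 0.58 for high minus low (limma, adjusted p = 0.358 and 0.736). The fifth was Srebf2 at -0.81 for high minus negative. Calls in high or low cells but not in negative cells therefore do not show that the populations responded differently.

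Arrays of 1 group differed in where the 17 enzymes stood. As a deviation from each gene's mean over all 21 arrays, the median enzyme stood at -0.04, -0.24, 0.01 and -0.08 on the tamoxifen high arrays, against 0.91, 0.05 and 0.32 on the control high arrays. On the tamoxifen low arrays it stood at -0.35, -0.44, -0.46 and -0.58, against -0.12, -0.27 and 0.18 on the control low arrays. On the tamoxifen negative arrays it stood at 0.17, -0.06, 0.37 and -0.15, against 0.37, 0.16 and 0.33 on the control negative arrays. Control high 1 was the highest of its group for 13 of the 17 enzymes, control low 3 for 14 of the 17, and tamoxifen negative 3 for 13 of the 17. The tamoxifen low arrays were the lowest of the 6 groups, and the tamoxifen high and control high ranges nearly met at control high 2. Without control high 1 the count of called genes in high cells was 0 and the median of the 26 genes -0.14, without tamoxifen high 1 the count was also 0, without control high 2 it was 1, and without tamoxifen high 4 it was 7. In low cells the count ran from 2 to 5 when 1 array was left out, with 5 without tamoxifen low 3, and in negative cells it was 1 without tamoxifen negative 4.

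**Figure D3:**
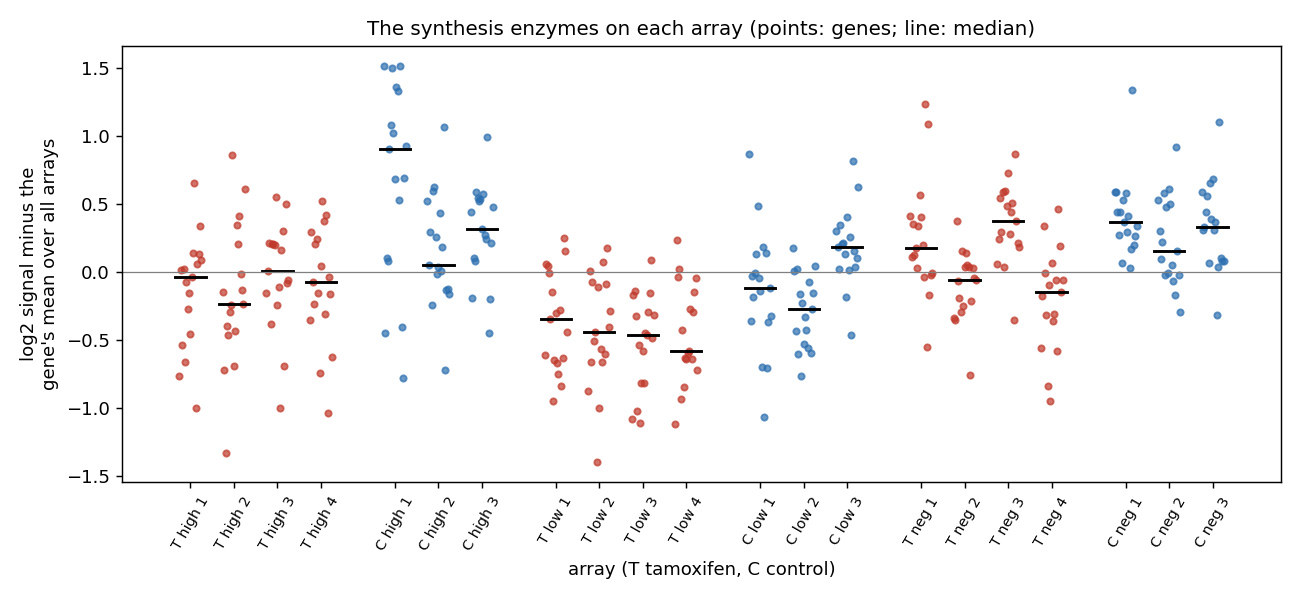
The 17 synthesis enzymes on each of the 21 arrays, as log2 signal minus the gene's mean over all arrays. Points are genes, lines the median on that array, red tamoxifen and blue control, with each tamoxifen group left of its control group. The median on control high 1 is 0.91, above every other array, and the medians of the 4 tamoxifen low arrays run from -0.58 to -0.35.

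The list of other sterol and SREBP pathway genes (receptors, transporters, oxysterol enzymes, degradation factors and fatty acid enzymes) had 53 genes, of which 43 were matched. In high cells 0 rose and 3 fell, against 1.7% and 1.04% of all genes. Stard5, a sterol carrier, fell by 1.44 ± 0.23 (limma, adjusted p = 0.00192), with tamoxifen high arrays of 6.14 to 7.08 and control high arrays of 7.62 to 8.58. Ch25h, a hydroxylase that makes an oxysterol, was at least 1.39-fold lower (limma, adjusted p = 0.0112), since all 4 tamoxifen arrays lay under the background guide, and its call was lost without control high 1 (adjusted p = 0.0819). Its control high arrays ran from 4.14 to 5.39 with a median of 4.37, so the lowest also lay under the guide of 4.16. Gramd1c, of a family that carries cholesterol inward from the plasma membrane, fell by 0.98 ± 0.26 (limma, adjusted p = 0.0437), and lost its call when tamoxifen high 2, control high 1 or control high 3 was left out (adjusted p up to 0.231). With only the high groups in the fit, the calls of Stard5, Ch25h and Gramd1c were all lost (limma, adjusted p = 0.184, 0.2 and 0.315).

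In low cells 1 of the 43 rose and 5 fell, against 5.35% and 2.98% of all genes. Tmem97, which encodes the sigma-2 receptor and restrains the lysosomal cholesterol exporter NPC1, fell by 1.28 ± 0.27 (limma, adjusted p = 0.00512), with arrays of 5.90 to 6.52 in tamoxifen low and 7.34 to 7.73 in control low cells. Acat1, a mitochondrial thiolase, fell by 1.22 ± 0.20 (limma, adjusted p = 0.000519). Both of these calls held when any 1 array was left out. Osbp, an oxysterol-binding protein, fell by 0.75, Fads2, a fatty acid desaturase, by 1.51, and Scd1, stearoyl-CoA desaturase, was at least 2.12-fold lower, with 3 of 4 tamoxifen low arrays under the background guide and overlapping groups (limma, adjusted p = 0.0232, 0.0233 and 0.0331). Each lost its call without control low 1 (adjusted p = 0.072, 0.118 and 0.213), among others. Apoe, the apolipoprotein, rose by 0.58 ± 0.17 (limma, adjusted p = 0.0340), and lost its call in 9 of 16 alternatives, with adjusted p = 0.183 without control low 2.

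In negative cells 0 of the 43 rose and 1 fell, against 2.32% of all genes called in either direction. Erlin1, an endoplasmic reticulum protein that takes part in the degradation of HMG-CoA reductase, fell by 1.32 ± 0.34 (limma, adjusted p = 0.0437). Its arrays read 7.67 to 8.34 in tamoxifen negative and 9.41 to 9.51 in control negative cells, and the call was lost without any 1 of 6 of the 7 arrays compared (adjusted p up to 0.16, without control negative 1). Averaged over the populations 2 of the 43 rose and 10 fell, against 9.9% and 6.74% of all genes. Acaca, acetyl-CoA carboxylase, fell by 0.41 ± 0.10 (limma, adjusted p = 0.0104). Lipa, the lysosomal enzyme that frees cholesterol from its esters, rose by 0.73 ± 0.20 (limma, adjusted p = 0.0173). Both of these averaged calls held without any 1 array. The averaged call of Apoe, the other gene that rose, was lost in 20 of its 30 alternatives, 15 of which leave out 1 array.

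Markers of several cell types also differed between tamoxifen and control arrays. Of all genes, 1.04% fell and 1.7% rose in high cells, and 2.98% fell and 5.35% rose in low cells. In negative cells 2.32% of all genes were called in either direction. The mean of 7 parietal cell markers ran from 5.12 to 5.74 in tamoxifen high and from 6.41 to 6.71 in control high cells, from 6.44 to 7.21 in tamoxifen low and from 7.91 to 8.48 in control low cells, and from 5.55 to 6.62 in tamoxifen negative and from 6.87 to 7.35 in control negative cells, and 3 of the 7 fell in each population. The mean of 6 tuft cell markers ran from 5.09 to 6.75 in tamoxifen low and from 8.33 to 9.78 in control low cells, where 6 of 6 fell. It ran from 7.51 to 10.35 in tamoxifen high and from 10.28 to 11.02 in control high cells, and from 5.55 to 6.64 in tamoxifen negative and from 6.59 to 7.85 in control negative cells, with 0 of 6 called in each. Of 5 mucous neck markers, 2 fell in low and 3 in negative cells, and of 5 chief cell markers 1 fell in high and 2 in low cells. Of 6 endocrine markers 2 fell in low and 1 rose in negative cells. Of 5 hepatocyte markers 2 fell in high and 3 in low cells, and their mean ran from 5.01 to 5.35 in tamoxifen high and from 5.65 to 5.88 in control high cells, and from 5.55 to 5.73 in tamoxifen low and from 6.29 to 6.69 in control low cells. Of 5 endothelial markers 1 fell in high and 1 in low cells, and of 6 immune markers 1 rose and 1 fell in low cells and 1 rose in negative cells. In tamoxifen and control high cells, 3 and 4 of the 5 endothelial markers had a mean at or under the background guide. In tamoxifen and control low cells 5 and 3 did. Of the 6 immune markers, 3 or 4 lay there in each group. The part of all these cell type markers in the sterol gene results was not tested.

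Between populations, the exporter Abca1 differed most. In control mice it read 8.90, 7.82 and 7.49 in high cells, against 5.22, 5.02 and 5.09 in negative cells, with no overlap. It was higher by 2.96 ± 0.40, 7.78-fold (limma, adjusted p = 5.49e-05), a call kept in each of its 16 alternatives. Against control low cells, which read 6.99, 5.67 and 6.28, it was higher by 1.75 ± 0.40 (limma, adjusted p = 0.0274, lost without control high 1, control high 2, control low 2 or control low 3, adjusted p up to 0.26). In tamoxifen mice Abca1 read 7.29, 7.52, 8.31 and 7.69 in high, 6.13, 6.54, 5.84 and 6.02 in low and 6.47, 6.73, 6.34 and 5.06 in negative cells. High cells lay above negative cells by 1.55 ± 0.35 and above low cells by 1.57 ± 0.35 (limma, adjusted p = 0.00531 and 0.0138). The call against low cells was lost without tamoxifen high 3 (adjusted p = 0.0539).

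In all, 4 of the 26 genes were higher and 2 lower in control high than in control negative cells, against 4.64% of all genes that were higher and 7.66% that were lower. Besides Abca1, Tm7sf2 was higher by 1.18 ± 0.30 (limma, adjusted p = 0.0102), Fdft1 by 0.71 ± 0.21 (adjusted p = 0.031) and Abcg1 by 0.63 ± 0.19 (adjusted p = 0.0303). Lbr read 6.01, 5.70 and 5.97 in control high and 7.76, 7.34 and 7.52 in control negative cells, and was lower by 1.65 ± 0.31, 3.13-fold (limma, adjusted p = 0.00103), in each of its 16 alternatives. Of these reductases of the same step, Tm7sf2 was thus higher and Lbr lower in control high cells. Insig2 was lower by 0.77 ± 0.24 (limma, adjusted p = 0.0354). The call of Tm7sf2 was lost without control high 1 (adjusted p = 0.0662), and those of Fdft1, Insig2 and Abcg1 without any 1 of 5, 5 and 4 of the 6 arrays compared (adjusted p up to 0.185, 0.219 and 0.184). Insig2 also lost its call with cyclic loess scaling (0.0572) and Abcg1 with only the groups compared in the fit (0.0641). Without control high 1 the count was 2, and the median of the 26 genes, 0.24, was -0.03.

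In control low against control negative cells, 1 gene of the 26 was higher and 1 lower, where 1.85% of all genes were higher and 3.41% lower. Abcg1 was higher by 0.72 ± 0.19 (limma, adjusted p = 0.0298), a call lost without control low 2, control low 3, control negative 1 or control negative 3 (adjusted p up to 0.176). Lbr was lower by 1.5 ± 0.31 (limma, adjusted p = 0.00642, and 0.0516 without control low 1). In control high against control low cells 2 were higher and 0 lower, against 0.694% and 0.645% of all genes. Beside Abca1 this was Msmo1, which read 8.71, 7.79 and 7.93 in control high and 6.66, 7.02 and 7.37 in control low cells (1.13 ± 0.25, limma adjusted p = 0.0252, lost without control high 1, control low 1 or control low 2, adjusted p up to 0.233). With only the groups compared in the fit the calls of Abca1 (adjusted p = 0.124) and Msmo1 (0.136) were lost, and so was that of Abcg1 in low against negative cells (0.0743).

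In tamoxifen mice, 2 of the 26 genes were higher and 2 lower in high than in negative cells, against 3.33% and 6.97% of all genes. Mylip read 7.21, 7.28, 6.41 and 5.93 in tamoxifen high and 4.52, 5.77, 5.17 and 5.41 in tamoxifen negative cells, and was higher by 1.49 ± 0.28, 2.80-fold (limma, adjusted p = 0.0015), in each of its 18 alternatives. Pmvk was lower by 0.84 ± 0.24 (limma, adjusted p = 0.0264), and lost its call without tamoxifen high 2 (0.0844) or tamoxifen negative 3 (0.0821). Lbr was lower by 0.97 ± 0.27 with overlapping arrays (limma, adjusted p = 0.0233), and lost its call without tamoxifen high 3, tamoxifen high 4, tamoxifen negative 1 or tamoxifen negative 3 (adjusted p up to 0.088). With the sorting run as a block Lbr was lower by 0.69 and not called (adjusted p = 0.113). With only the groups compared in the fit, the calls of Pmvk (adjusted p = 0.158) and Lbr (0.14) were lost.

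In tamoxifen low against tamoxifen negative cells, 1 of the 26 genes was higher and 3 lower, against 0.509% and 1.73% of all genes. Of the 17 enzymes 2 were called lower, Sqle and Cyp51, and 16 had a lower mean, against 9454 of all 22180 genes with a lower mean. The median difference of the 26 was -0.49, beside 0.04 for all genes, and -0.22 with the sorting run as a block, which left the calls of Sqle and Cyp51. Sqle read 7.15, 6.70, 6.98 and 7.25 in tamoxifen low and 8.43, 8.24, 8.69 and 8.0 in tamoxifen negative cells, with no overlap. It was lower by 1.32 ± 0.25, 2.50-fold (limma, adjusted p = 0.0052), in each of its 18 alternatives. Cyp51 was lower by 0.94 ± 0.21 and Insig1 by 0.82 ± 0.18 (limma, adjusted p = 0.0195 and 0.0156), while Mylip was higher by 1.09 ± 0.28 (limma, adjusted p = 0.0437). Cyp51 lost its call without tamoxifen low 2, tamoxifen negative 1 or tamoxifen negative 3 (adjusted p up to 0.099), Insig1 without those or tamoxifen low 3 (adjusted p up to 0.0769), and Mylip without any array other than tamoxifen negative 2 (adjusted p up to 0.139). With the sorting run as a block the calls of Insig1 (adjusted p = 0.0671) and Mylip (0.0611) were lost, and with only the groups compared in the fit that of Insig1 (0.0726). In tamoxifen high against tamoxifen low cells 2 were higher, Abca1 and Sqle, and 0 lower, against 1.46% and 1.77% of all genes. Higher genes made up 45.2% of all calls there, and 64.4% with cyclic loess scaling. Sqle was higher by 0.96 ± 0.25 (limma, adjusted p = 0.0413), and lost its call with array weights (0.123) and without any array other than tamoxifen high 1 (adjusted p up to 0.131).

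**Figure D4:**
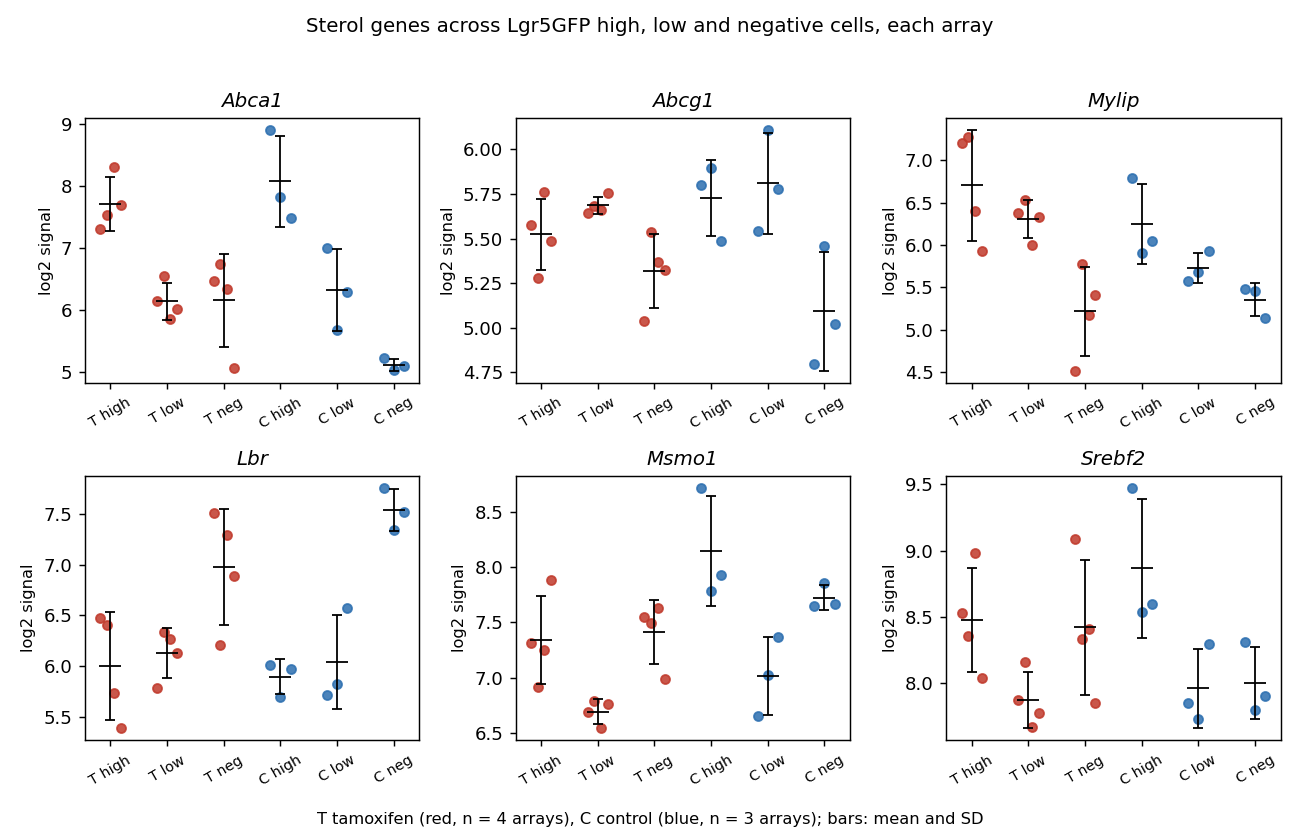
Log2 signal of Abca1, Abcg1, Mylip, Lbr, Msmo1 and Srebf2 in Lgr5GFP high, low and negative cells, each array, in tamoxifen mice (red, n = 4 arrays) and control mice (blue, n = 3); bars are the mean and SD. Abca1 is highest in high cells of both treatments, and Lbr is lowest in mean in control high cells and highest in control negative cells.

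Across the 6 groups the genes followed a few orders of level. The lowest mean of Hmgcs1, Fdps, Fdft1, Sqle, Cyp51, Tm7sf2 and Insig1 was in tamoxifen low cells. The highest was in control high cells for these genes, except Cyp51 and Insig1, which were highest in control negative cells. Insig1 had means of 8.79, 8.76 and 8.70 in control negative, high and low cells. All tamoxifen arrays of Insig1 lay below all control arrays of every population. The range of the 6 group means was 2.96 for Abca1, 1.84 for Sqle, 1.78 for Tm7sf2 and 1.75 for Hmgcs1, and 0.28 for Srebf1 and 0.52 for Ebp.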

How the data were processed

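The deposited table holds log2 signal per probe set on 21 arrays, made by the authors, and the submitters' processing notes name R 3.2.3, limma 3.26.8, RMA and oligo with no role or order. Per the labels, RNA was extracted with a micro kit, amplified as cDNA and labelled with biotin. The genome build is not given in the sources used here. Of 41345 probe sets, 23521 are annotated with 1 gene, 1814 with several and 16010 are not listed. The brightest probe set of each gene over the 21 arrays was used, which gave 22180 genes with no filter on level.

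Group means were fitted to all 6 groups with limma 3.58.1 in R 4.3.3 (lmFit and eBayes, 15 residual and 5.27 prior degrees of freedom), with two-sided tests and Benjamini-Hochberg adjustment over all genes, called under 0.05. SE and 95% intervals come from that fit, and the number of arrays limits their precision. Bounds were set against the 95th percentile of olfactory receptor genes. Every listed gene could be named, with up to 6 called genes each way per comparison from the other pathway list. The members, lists and tests were chosen with earlier results of these data known. Alternatives were cyclic loess, the mean of probe sets, trend and robust eBayes, array weights, only the groups compared, at least 2-fold, leaving out the dimmest 25 percent of genes, run or replicate number as a block, and each array left out.

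Titles give a number for each array, which was taken here as the sorting run. The titles do not say what that number stands for. Deviations of same-run arrays correlated at 0.22 to 0.32 for control high and low, 0.11 to 0.23 for control low and negative and 0.09 to 0.17 for control high and negative, which share their 3 runs. They correlated from -0.16 to 0.41 among tamoxifen groups, which share 3 or 4 runs. Arrays of different runs correlated from -0.28 to 0.34 among tamoxifen groups and from -0.27 to 0.03 among control groups. Values with the run as a block are given where it ended a call, and calls that it added are given as counts only.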

Additional observations from a re-analysis of the deposited data

Results flagged for a closer look

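Among the 78 sets of 4 tamoxifen arrays of the 26 genes, 1 held an array far from the others. Tm7sf2 read 5.42 on tamoxifen high 1, against 6.72 to 6.83 on the other tamoxifen high arrays. Chance alone picks out about 1 in 20 such sets. Without that array the tamoxifen difference of Tm7sf2 in high cells was -0.81 (limma, adjusted p = 0.0528).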

How the results depend on the processing

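The 36 called results of single genes were recomputed under their alternatives, 736 values in all: 618 kept the call, 118 lost it and 0 changed direction. The numbers of the 26 genes called moved by over 1.5 times as follows, with the cause not tested. For tamoxifen against control in high cells, 3 genes became 5 with cyclic loess, 0 with only the groups compared and 6 with the replicate number as a block. In low cells 3 became 5 with array weights, with the dimmest genes left out, with the run as a random block and with the replicate number as a block. In negative cells 0 became 3 with array weights, and the average over populations 10 became 1 at 2-fold. In control mice, high against negative 6 became 12 with array weights and 3 at 2-fold, low against negative 2 became 7 and 1 in those settings, and high against low 2 became 0 with only the groups compared. In tamoxifen mice, high against negative 4 became 2 with only the groups compared and 2 at 2-fold, low against negative 4 became 2 at 2-fold and 2 with the run as a block, and high against low 2 became 1 with array weights and 1 at 2-fold. With 1 array left out, the counts ran from 0 to 7, 2 to 5 and 0 to 1 for tamoxifen against control in high, low and negative cells, from 2 to 5, 1 to 2 and 0 to 2 for high against negative, low against negative and high against low in control mice, and from 2 to 6, 1 to 5 and 0 to 4 for the same pairs in tamoxifen mice. The median difference of the 26 genes ran from -0.51 to -0.14 for tamoxifen in high cells, from -0.026 to 0.38 for control high against negative and from -0.42 to -0.0796 for the interaction of high minus negative, which was -0.35 and became -0.12 with array weights. The sorting run as a block gave 8, 2 and 3 called genes for control high against negative, low against negative and high against low, which share their 3 runs, and ended no call of a single gene there. In tamoxifen mice, where some runs are shared, it ended the calls of Lbr for high against negative and of Insig1 and Mylip for low against negative, and no other call of a single gene. With that block the median for tamoxifen low against negative was -0.22, in place of -0.49. Between treatments a fixed run block could not be fitted, because each run holds 1 treatment. With 3 or 4 arrays a group, a difference that is small beside its SE cannot be resolved, and a gene without a call is not shown to be equal between groups.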
